A study of Rattus norvegicus with 6 samples.

Results

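Tubular injury and dedifferentiation markers are the genes that kidney epithelium switches on, sheds or secretes when it is damaged and when its surviving cells lose their mature features. The set described here holds 10 genes: Havcr1, Lcn2, Clu, Spp1, Vim, Sox9, Vcam1, Cd44, Krt7 and Anxa1. All probes whose RefSeq accession belongs to one of these genes were taken, which gave 16 probes of 9 genes among 61537 non-control probes, of which 28206 carried an accession of one of 15645 named genes. No probe was matched to Sox9, a transcription factor of regenerating tubule, and it is not analysed here. The expression measurements came from the renal cortex of 6 male Sprague-Dawley (Crl:CD(SD)) rats bought at 5 weeks of age, with 1 Cy3-labelled Agilent array per animal. The treated group comprised 3 rats given 4-hydroxy-m-phenylenediammonium dichloride, an aromatic diamine salt, at 100 mg/kg/day for 4 weeks. The control group comprised 3 rats given corn oil for 4 weeks, and the labels do not say what the compound was dissolved in. The design text calls the 3 arrays of each group biological replicates.

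Most of the cells of the renal cortex are proximal tubule cells, which take back filtered sugar, amino acids, phosphate and protein. After toxic or ischaemic damage, surviving tubule cells lose transporters, flatten, take up intermediate filaments and adhesion molecules of less mature cells, and some then divide and mature again. Several products of such cells reach the urine and are used in rats as safety markers of drug-induced kidney injury. In bulk cortex, fewer cells of a type and less RNA per cell cannot be told apart, and most of the 10 genes are also made by cells other than damaged tubule.

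The labelled tissue was checked on proximal tubule genes. All 7 defining markers of proximal tubule (Slc34a1, Lrp2, Cubn, Slc5a2, Slc22a6, Aqp1 and Miox) were well above background on every array. Between 68.9% and 69.6% of probes were well above background on treated arrays, and between 63.1% and 67.7% on control arrays. Log2 signals were correlated across the genes tested, with 1 probe per gene. The correlations were 0.993 to 0.994 within the treated group, 0.990 to 0.991 within the control group and 0.985 to 0.991 between groups. Each of the 2 slides and each of the 2 scans held arrays of 1 group, so for every difference below the treatment, the slide and the scan cannot be told apart. The 7 bright spike-in transcripts, foreign RNAs used to check labelling, had a median treated minus control difference of -0.14 on the log2 scale, with a range of -0.18 to -0.07. Spike-in scaling below used each array's median spike level, which on every array was that of the same spike. The difference of that spike was -0.18, the lowest of the 7, and scaling to the median difference of -0.14 was not run.

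Levels below are log2 processed signals from which the 75th percentile of the same array was subtracted, so that 0 is the 75th percentile and 1 unit is a doubling of signal. Differences are treated minus control on that log2 scale, tested with limma over 12130 genes and adjusted by the Benjamini-Hochberg method. None of the 9 measured markers passed an adjusted p of 0.05 when each gene was represented by its brightest kept probe, where 4.38% of all genes tested did, 3.05% higher and 1.33% lower. Spp1 had the lowest p among the markers with a higher treated mean, and Krt7 and Anxa1 had the lowest among those with a lower treated mean. At an unadjusted p under 0.05, 1 marker was higher (Spp1) and 2 were lower (Krt7 and Anxa1), which is 3 of 9, against 25.0% of all genes (11.8% higher and 13.2% lower). The groups did not overlap for 4 of the 9 markers, higher for Spp1 and lower for Vim, Krt7 and Anxa1, where 32.8% of all genes did not overlap (14.1% higher and 18.7% lower). Treated means were above control means for 2 markers (Havcr1 and Spp1) and below them for the other 7, of which Vim and Vcam1 turned to 0.05 and 0.03 under spike-in scaling and Lcn2 to 0.05 without treated animal 2. The median difference of the 9 was -0.26, beside -0.03 over all genes. That median was -0.11 without treated animal 2, -0.14 without treated animal 3, -0.16 with the mean of kept probes and -0.07 under spike-in scaling, where the median of all genes stood at 0.15. When each probe was tested on its own among 40988 probes, 1 marker passed, Anxa1 by its second probe, where 6.72% of all probes did. Of the 13 marker probes tested, 4 had an unadjusted p under 0.05 in limma, against 25.5% of all probes.

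**Figure D1:**
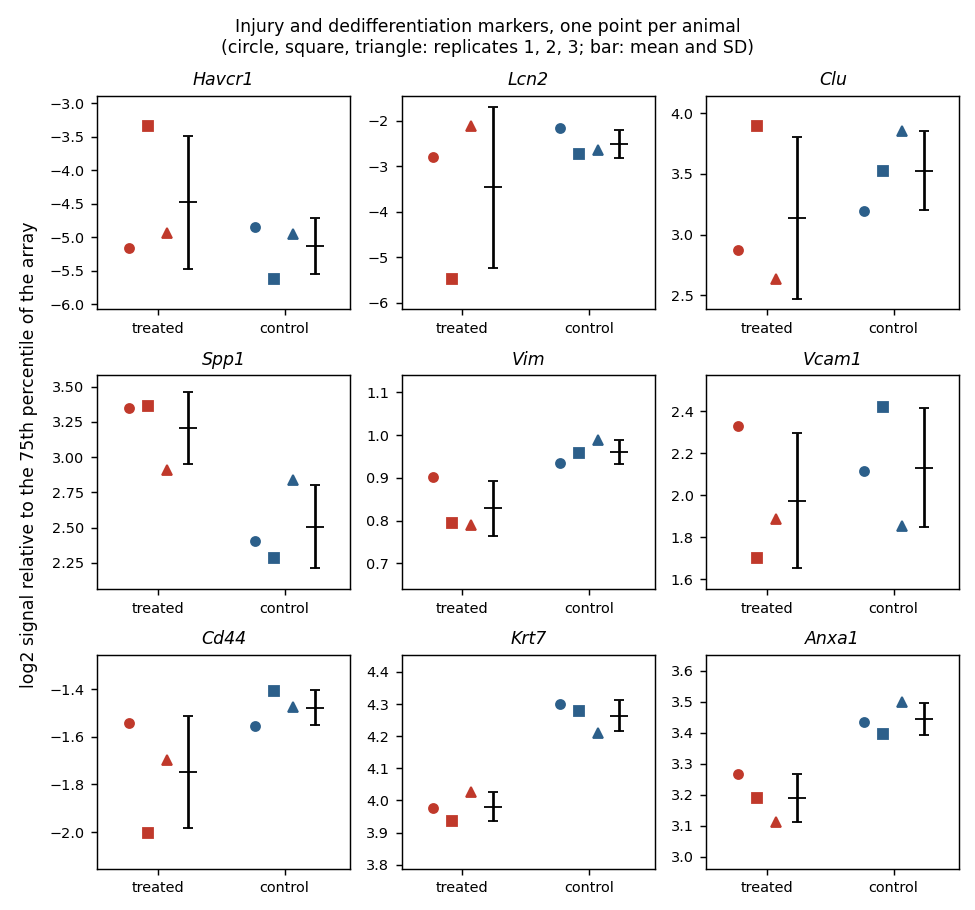
Level of each measured marker in each animal, by its brightest kept probe, as log2 signal minus the array's 75th percentile, with 1 point per animal, treated left of control, and a bar at each group's mean. For Havcr1, Lcn2 and Clu 1 treated animal lies apart from the other 2. For Spp1, Vim, Krt7 and Anxa1 the 3 treated points do not overlap the 3 control points, with a small gap for Spp1 and Vim.

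Havcr1 encodes kidney injury molecule 1, a membrane receptor for phosphatidylserine that lets injured proximal tubule cells engulf dying neighbours and whose shed outer part is read in urine. Its level was -5.16, -3.34 and -4.94 in treated animals 1, 2 and 3, against -4.84, -5.62 and -4.95 in control animals 1, 2 and 3. Treated animal 2 stood above all other animals, and treated animals 1 and 3 lay within the range of the controls. The means were -4.48 ± 0.99 in treated animals and -5.14 ± 0.42 in control animals (SD, n = 3 each). The difference of 0.66 ± 0.52 (SE) had an adjusted p of 0.475 by limma and a 95% interval of -0.62 to 1.94. In signal units, before scaling, Havcr1 read 28.1, 95.9 and 30.4 in treated animals 1, 2 and 3, against 31.6, 19.9 and 27.1 in control animals 1, 2 and 3. The probe was well above background on all 6 arrays, but its control levels were close to the lowest level of any probe called well above background there, which was -5.59, -5.80 and -5.11. Without treated animal 2 the Havcr1 difference was 0.09, so its size rests on that animal, and with normexp background it was 0.24.

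Lcn2 encodes neutrophil gelatinase-associated lipocalin, an iron-siderophore carrier that stressed distal nephron and collecting duct cells secrete and that neutrophils store in their granules. Its level was -2.79, -5.46 and -2.12 in treated animals 1, 2 and 3, against -2.16, -2.73 and -2.64 in control animals 1, 2 and 3. Here too treated animal 2 stood alone, at the bottom rather than the top, and the other 2 treated animals lay just outside either end of the control range. The group means were -3.46 ± 1.77 in treated animals and -2.51 ± 0.31 in control animals (SD, n = 3 each). The difference of -0.95 ± 0.86 (SE) had an adjusted p of 0.535 by limma and a 95% interval of -3.09 to 1.19, which includes a change in either direction. Without treated animal 2 the difference was 0.05, so its sign turned on that animal. The probe was well above background on all 6 arrays, but in treated animal 2 it read only 22.1 in signal units. Its level there was close to the lowest of any probe called well above background on that array, -5.92. With normexp background the Lcn2 difference was -0.52.

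Lcn2 is known as a target of the inflammatory factor NF-kB, and its promoter is shown because that motif was found in it. The window runs from 250 bases before to 50 bases after the gene start at chr3:36081731-36082030 on the minus strand (RefSeq, GRCr8), is written 5′ to 3′, and has the match to the NF-kB consensus in capitals, starting at -242.
Lcn2 promoter: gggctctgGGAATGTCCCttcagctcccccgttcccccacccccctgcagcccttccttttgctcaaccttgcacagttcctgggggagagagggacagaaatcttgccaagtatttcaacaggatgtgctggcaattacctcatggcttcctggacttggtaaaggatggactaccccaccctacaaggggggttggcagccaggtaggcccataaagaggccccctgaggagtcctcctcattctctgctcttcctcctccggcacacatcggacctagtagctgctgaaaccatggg
The NF-kB consensus, searched on both strands, was present in 2.34% of 33469 promoter windows of the same length, and among the markers with a window it was found in Lcn2 and Vcam1. A match describes the letters and not a site in use.

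Clu encodes clusterin, a secreted chaperone that binds misfolded protein and membrane debris and appears in urine after tubular damage. Its level by the brighter of 2 probes was 2.88, 3.89 and 2.64 in treated animals 1, 2 and 3, against 3.20, 3.52 and 3.85 in control animals 1, 2 and 3. Treated animal 2 was just above the top control and the other 2 treated animals were below all controls. The difference was -0.39 ± 0.36 (SE), with an adjusted p of 0.542 by limma and a 95% interval of -1.28 to 0.50. The second Clu probe gave -0.41, and it ranked the 6 animals in the same order. Leaving out 1 array moved the Clu difference either way, to -0.77 without treated animal 2 (adjusted p = 0.166 by limma), -0.14 without treated animal 3, -0.26 without treated animal 1 and -0.23 without control animal 3.

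Spp1 encodes osteopontin, a secreted phosphoprotein that binds integrins and CD44, holds back crystal growth in urine and draws in macrophages after injury. Its level was 3.35, 3.36 and 2.91 in treated animals 1, 2 and 3, against 2.40, 2.28 and 2.84 in control animals 1, 2 and 3. All 3 treated animals were above all 3 controls, although treated animal 3 lay only slightly above control animal 3. The means of 3.21 ± 0.26 in treated animals and 2.51 ± 0.29 in control animals (SD, n = 3 each) correspond to a 1.62-fold higher signal. The difference of 0.70 ± 0.19 (SE) had an unadjusted p of 0.0122 and an adjusted p of 0.101 by limma, with a 95% interval of 0.22 to 1.18. Of the markers, Spp1 was the one whose treated and control groups separated upwards.

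The Spp1 promoter is shown because Spp1 is the marker whose animals separated upwards. It lies at chr14:5619755-5620054 on the minus strand (RefSeq, GRCr8), 5′ to 3′, with the TATAAA match in capitals, at -204.
Spp1 promoter: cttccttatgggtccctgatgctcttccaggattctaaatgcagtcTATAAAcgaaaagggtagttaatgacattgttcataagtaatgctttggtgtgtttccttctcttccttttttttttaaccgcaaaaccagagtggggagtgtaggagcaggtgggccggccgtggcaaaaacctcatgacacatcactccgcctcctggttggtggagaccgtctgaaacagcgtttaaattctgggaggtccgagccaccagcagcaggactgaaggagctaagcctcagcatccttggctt
TATAAA, on either strand, was present in 14.2% of the promoter windows, and among the 7 markers with a window it was found in Spp1, Vim, Vcam1 and Anxa1. The AP-1 letters TGANTCA (7.33% of windows) and the STAT letters TTCNNNGAA (8.87% of windows) were found in none of the 7, which says only that they are absent from these 300 bases. Clu, Krt7 and Sox9 are not shown.

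Vim encodes vimentin, the intermediate filament of mesenchymal and endothelial cells that tubule cells take up when they dedifferentiate. Its level was 0.90, 0.79 and 0.79 in treated animals 1, 2 and 3, against 0.93, 0.96 and 0.99 in control animals 1, 2 and 3. The treated animals were all below the controls. The difference was -0.13 ± 0.058 (SE), with an adjusted p of 0.229 by limma and a 95% interval of -0.28 to 0.01, and it was 0.05 under spike-in scaling.

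Krt7 encodes keratin 7, a simple-epithelium keratin found in collecting duct and urothelium and seen in injured or regenerating tubule. Its level was 3.98, 3.94 and 4.03 in treated animals 1, 2 and 3, against 4.30, 4.28 and 4.21 in control animals 1, 2 and 3. The groups did not overlap, and the animals of each group lay close together. The means were 3.98 ± 0.045 in treated animals and 4.26 ± 0.049 in control animals (SD, n = 3 each), a 1.22-fold lower signal in treated animals. The difference of -0.28 ± 0.057 (SE) had an unadjusted p of 0.00282 and an adjusted p of 0.0552 by limma, with a 95% interval of -0.42 to -0.14. Krt7 passed the threshold under 2 alternative settings, with adjusted p of 0.0499 when probes had to be well above background on all 6 arrays and 0.0298 with an intensity trend in the variance prior. Under scaling to the spike-in transcripts the Krt7 difference was -0.10.

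Anxa1 encodes annexin A1, a phospholipid-binding protein that dampens neutrophil recruitment and that dedifferentiated epithelium makes in larger amounts. Its level by the brighter probe, chosen for the gene, was 3.27, 3.19 and 3.11 in treated animals 1, 2 and 3, against 3.44, 3.40 and 3.50 in control animals 1, 2 and 3. The groups did not overlap. The difference was -0.26 ± 0.065 (SE), with an adjusted p of 0.0847 by limma and a 95% interval of -0.42 to -0.09. The second probe read 3.00, 3.04 and 2.95 in treated animals 1, 2 and 3, against 3.40, 3.33 and 3.35 in control animals 1, 2 and 3, and it too kept the groups apart. That second probe fell by 0.37 ± 0.059 (SE) on the log2 scale in treated animals, which is 1.29-fold lower, with an adjusted p of 0.0259 by limma over all probes. The call did not hold without a filter on dim probes, with the replicate number as a block or in any of the 6 fits that left out 1 array. Under spike-in scaling the difference by the brighter probe was -0.07, with an adjusted p of 0.612 by limma. There Spp1 passed in place of Anxa1, with an adjusted p of 0.0428 by limma over all probes. Under that scaling 5820 of 40988 probes passed, against 2754 in the main fit. Anxa1 therefore passed by 1 of its 2 probes, with the same sign by both.

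The Anxa1 promoter is shown because Anxa1 passed by 1 probe and its window holds 2 of the searched motifs. It lies at chr1:227303683-227303982 on the minus strand (RefSeq, GRCr8), 5′ to 3′. Capitals mark, in order, the antioxidant response element core TGACNNNGC at -127, the motif of the oxidant-sensing factor NRF2, and TATAAA at -46.
Anxa1 promoter: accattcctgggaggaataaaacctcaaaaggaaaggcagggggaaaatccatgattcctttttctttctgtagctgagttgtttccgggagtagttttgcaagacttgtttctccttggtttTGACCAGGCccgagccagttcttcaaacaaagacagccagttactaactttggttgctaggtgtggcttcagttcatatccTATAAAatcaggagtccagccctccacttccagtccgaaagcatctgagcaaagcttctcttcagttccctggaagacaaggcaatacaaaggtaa
The antioxidant response element core was present in 12.1% of promoter windows, and among the 7 markers it was found in Anxa1 and Cd44.

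Vcam1 encodes vascular cell adhesion molecule 1, an integrin ligand of inflamed endothelium that also marks proximal tubule cells that fail to repair. Its level was 2.33, 1.70 and 1.89 in treated animals 1, 2 and 3, against 2.12, 2.42 and 1.85 in control animals 1, 2 and 3. The groups overlapped. The difference was -0.16 ± 0.21 (SE), with an adjusted p of 0.685 by limma and a 95% interval of -0.68 to 0.37, and it was 0.03 under spike-in scaling, -0.02 without treated animal 2 and -0.01 without control animal 2.

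Cd44 encodes the receptor for hyaluronan and osteopontin, which appears on injured tubule and on leukocytes. It has 6 matched probes, of which 3 were not well above background on any array and 3 were tested. By the brightest kept probe its level was -1.54, -2.00 and -1.70 in treated animals 1, 2 and 3, against -1.55, -1.41 and -1.47 in control animals 1, 2 and 3. The groups overlapped only through treated animal 1, and the difference was -0.27 ± 0.13 (SE) with an adjusted p of 0.257 by limma. The 3 tested probes gave -0.27, -0.23 and 0.10, so they disagreed in sign. The difference by the brightest probe was -0.14 without treated animal 2 and -0.09 under spike-in scaling.

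**Figure D2:**
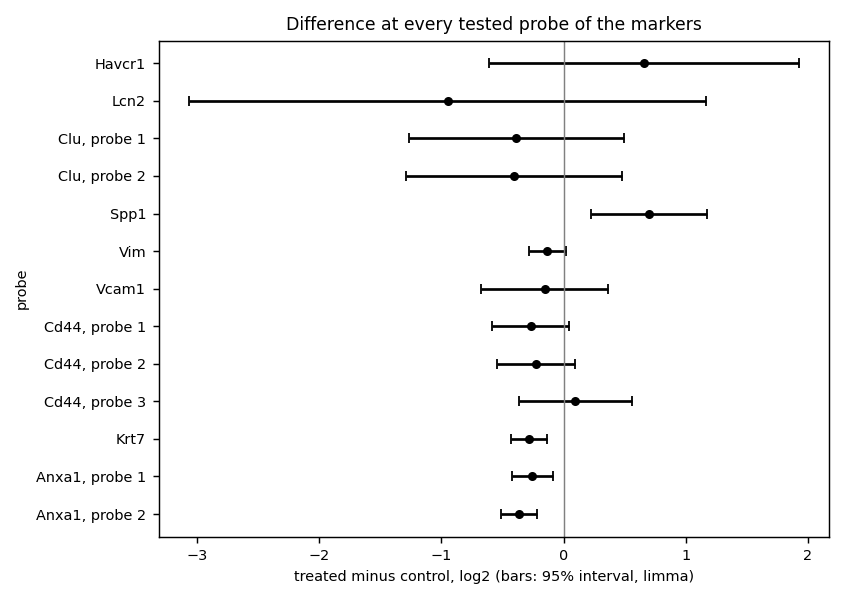
Treated minus control difference of each tested marker probe on the log2 scale, with points at the difference and lines over the 95% interval. The intervals, which are not adjusted for the number of genes, leave out 0 for Spp1, Krt7 and both Anxa1 probes, and the intervals of Havcr1 and Lcn2 are the widest of the markers.

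Treated animal 2 lay far from the other 2 treated animals for Lcn2, Havcr1 and Clu. Its level was compared with the mean of the other 2 treated animals for each gene, and the median distance over all 12130 genes was 0.103 in either direction. For Lcn2 the distance was -3.01, and 0.0495% of all genes lay as far in either direction. That Lcn2 level was close to the lowest called well above background. Havcr1 lay 1.70 above, as far as 0.305% of genes, and Clu lay 1.14 above, as far as 1.02% of genes. For Vcam1 (-0.41) and Cd44 (-0.38) the distance was reached by 9.16% and 10.1% of genes. Spp1 at 0.24, Krt7 at -0.06 and Vim at -0.05 were not unusual for that animal, and Anxa1 was not either. The animal is described after its values were seen, and no test was made of it.

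Lcn2, Havcr1 and Clu also had the largest SDs of the 9 markers among treated animals. Lcn2 had an SD of 1.77 in treated animals, 5.75 times the control SD, and 0.124% of all genes had a treated SD as large. For Havcr1 the treated SD of 0.99 was 2.35 times the control SD, and 0.750% of genes had one as large. For Clu the ratio was 2.05, with 2.27% of genes as variable. The ratio was larger than for Clu in Cd44 (3.23) and Vim (2.31), whose treated SDs of 0.235 and 0.064 were reached by 19.5% and 73.2% of genes. Krt7 was at the other end, with a treated SD that 84.5% of genes reached. With 3 animals a group these are descriptions, and the treated SD of Lcn2 includes a level close to the lowest called well above background.

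Genes with the pattern most like each marker were found by the root mean square distance between levels centred on their mean over 6 arrays. The 2 genes nearest to Lcn2 were Hsd17b1, an enzyme that activates oestrogen, at 0.406 and Myorg, a glycosidase, at 0.457. Hsd17b1 stood at 2.25, -0.63 and 1.96 in treated animals 1, 2 and 3, against 2.32, 2.55 and 1.78 in control animals 1, 2 and 3, and Myorg was likewise low in treated animal 2 (-2.26). As these 2 genes were picked for likeness to Lcn2 over the same arrays, their low level in treated animal 2 follows from the choice. Nearest to Havcr1 were Dynlrb2 (0.317) and Phkg1 (0.330), nearest to Clu were Cldn24 (0.158) and Lrrc73 (0.163), and nearest to Spp1 were Vom1r100 (0.0912) and Acnat2 (0.110). The genes nearest to Krt7 were Ndufv2 (0.0190) and Erlin2 (0.0222), both of which passed the test, with adjusted p of 0.0442 and 0.0390 by limma. Both were picked for likeness to Krt7, whose groups lay apart, so their passing says nothing further about Krt7. Vim lay nearest to Psma4 (0.0141) and Pfdn2 (0.0175), Anxa1 to Impdh1 and Mmp14 (0.0202 each), Vcam1 to Abhd14a (0.0762) and Hrk (0.0782), and Cd44 to Aoah (0.0408) and S100a4 (0.0416). A small distance is easy to reach for a marker that varies little, and these are descriptions over 6 arrays.

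**Figure D3:**
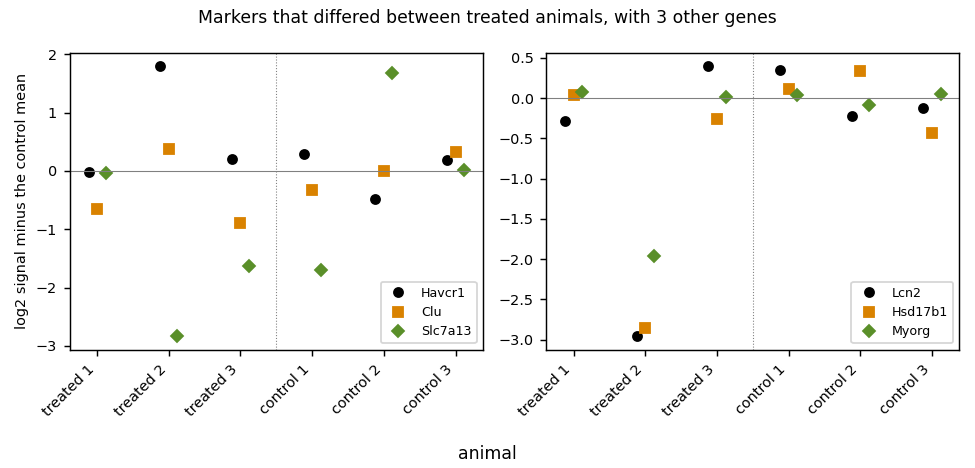
Level of 3 genes in each animal minus the mean of the controls, on the log2 scale, with Havcr1, Clu and the proximal tubule transporter gene Slc7a13 on the left and Lcn2, Hsd17b1 and Myorg on the right. In treated animal 2, Havcr1 is high and Slc7a13 is low, and Lcn2, Hsd17b1 and Myorg are all low. Hsd17b1 and Myorg were picked for their likeness to Lcn2 over these arrays, and Slc7a13 was chosen once its values had been seen.

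Slc7a13, an amino acid transporter of the last segment of proximal tubule, was chosen for mention once its values had been seen. The transporter gene stood at 4.17, 1.38 and 2.57 in treated animals 1, 2 and 3, against 2.51, 5.89 and 4.23 in control animals 1, 2 and 3. Its lowest level was in treated animal 2, where Havcr1 was highest, and its highest was in control animal 2, where Havcr1 was lowest. Among the other mature tubule genes tested, only Umod was also lowest in treated animal 2 (7.82), and only Slc5a12 was highest there (2.56). A link of Slc7a13 with Havcr1 was not tested. The Slc7a13 difference between groups was -1.50, with an adjusted p of 0.423 by limma.

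The binding partners and enzymes of the markers were 21 genes, of which 12 were tested, with a median difference of 0.04. Of the 12, 1 was higher and 1 lower, beside 3.05% and 1.33% of all genes tested. Has1, which makes the hyaluronan that CD44 binds, rose by 0.61 on the log2 scale in treated animals, 1.52-fold, with an adjusted p of 0.0240 by limma. Its level was -2.29, -2.28 and -2.16 in treated animals 1, 2 and 3, against -2.75, -2.89 and -2.91 in control animals 1, 2 and 3, so the groups lay apart. Slc22a17, the receptor that takes up lipocalin 2, fell by 0.36 on the log2 scale, 1.28-fold lower, with an adjusted p of 0.0423 by limma. It stood at 2.99, 3.09 and 3.04 in treated animals 1, 2 and 3, against 3.31, 3.42 and 3.45 in control animals 1, 2 and 3. Both calls ended without a filter on dim probes, with the replicate number as a block and in all 6 fits that left out 1 array, and that of Has1 also with the mean of its kept probes. The Slc22a17 call ended too with quantile normalization, with the mean of kept probes and under spike-in scaling, where its difference was -0.18. Of the other partners, Itgav, Itga9, Fpr2, Lrp8 and Timd4 had no matched probe, and Fpr1, Has2, Has3 and Itgb3 were too dim to test.

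Of the 14 other safety markers of kidney injury, 1 was higher and none was lower, with a median of -0.16. Of all genes tested, 3.05% were higher and 1.33% lower. Igfbp7, a secreted binding protein read in urine as a cell-cycle arrest marker, rose by 0.75 on the log2 scale, 1.68-fold, with an adjusted p of 0.0265 by limma. Its level was 2.71, 2.53 and 2.44 in treated animals 1, 2 and 3, against 1.83, 1.90 and 1.71 in control animals 1, 2 and 3, and the groups lay far apart relative to their spread. Timp2, which is read in urine beside it, had a difference of -0.39 with an adjusted p of 0.0808 by limma, so the 2 differed in sign. The Igfbp7 call was lost under the same settings as those of Has1 other than the mean of probes.

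Of 30 other genes of dedifferentiating or regenerating tubule, 29 were tested and none passed, and the median was -0.02. An unadjusted p under 0.05 in limma was reached by 4 of the 29 with a higher and 4 with a lower treated mean. Of all genes tested, 11.8% reached it higher and 13.2% lower, so the list was near the share of all genes. The smallest p values belonged to Ccn2, a matrix protein made under TGF-beta and YAP signalling, with a difference of -0.42 and an adjusted p of 0.0525 by limma, and to Nupr1, a stress-induced chromatin protein, with 0.46 and 0.0566. Of 20 genes of mature tubule, 19 were tested, with a median of -0.09. None of these was higher and 1 was lower, beside 3.05% and 1.33% of all genes. That one was Aqp1, the water channel of proximal tubule and thin descending limb, which fell by 0.58 on the log2 scale, 1.49-fold lower, with an adjusted p of 0.0340 by limma. The Aqp1 level was 6.31, 6.39 and 6.53 in treated animals 1, 2 and 3, against 7.06, 7.04 and 6.86 in control animals 1, 2 and 3. The Aqp1 call was lost under the same settings as that of Igfbp7.

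**Figure D4:**
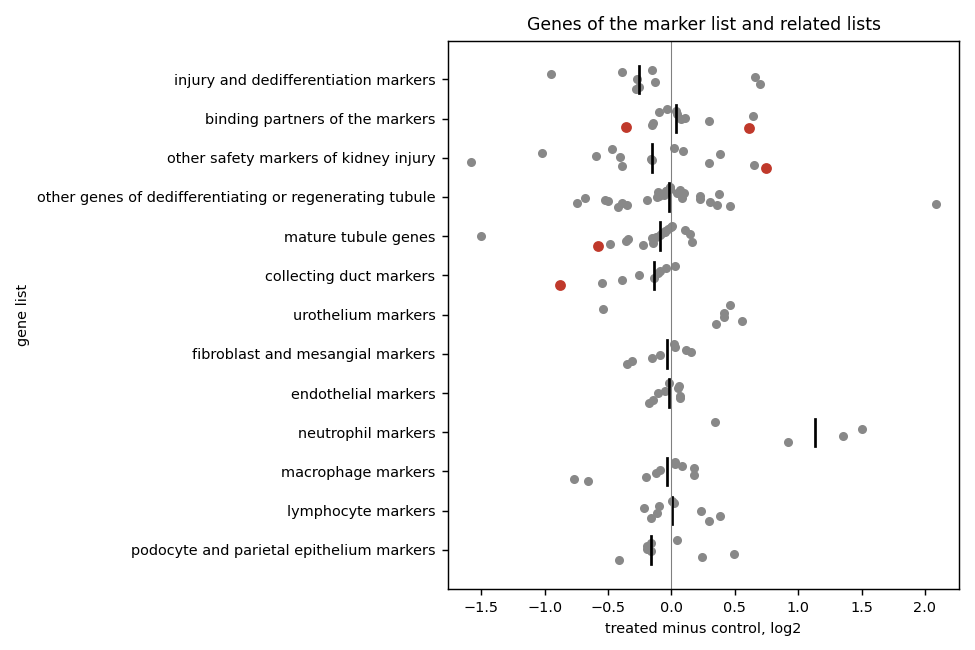
Treated minus control difference on the log2 scale of each tested gene in the markers and the related lists, with 1 point per gene, red where the adjusted p was under 0.05 and black bars at list medians (none for urothelium). The 9 markers have no red point, and the 4 tested neutrophil genes all lie above 0. Of the 6 urothelium points, 4 are genes kept only because they were above background on the treated arrays.

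Markers of other cell types that make the same genes were measured beside them, and their part in the marker results was not tested. Collecting duct markers, of which 9 of 10 were tested, bear on Krt7 and Lcn2. Among them 1 was lower, beside 1.33% of all genes. That gene was Elf5, a transcription factor of principal cells, which fell by 0.88 on the log2 scale with an adjusted p of 0.0281 by limma. The Elf5 call was lost under the same settings as that of Igfbp7. The median of the collecting duct markers was -0.14, and their log2 summed level was 7.73 to 7.98 in treated animals and 7.97 to 8.10 in control animals. Scnn1b and Hsd11b2, of which neither passed, were at -0.54 and -0.39, with no overlap between groups, as for 18.7% of all genes (treated lower). Urothelium markers, also relevant to Krt7, had 6 of 8 tested and none called. Of those 6, 4 (Krt15, Krt13, Krt5 and Upk3a) passed the filter only through the treated arrays. That favours genes that are higher there, so no median is read from the list. Of the other 2, which were well above background on all arrays, Upk1b was at 0.35 and Upk1a at -0.54. Under spike-in scaling, where 1280 of 12130 genes passed with a higher treated mean, Upk1b passed with an adjusted p of 0.0131 by limma. With the mean of its kept probes Upk1b was at 0.18, with an adjusted p of 0.855 by limma. Neutrophil markers, which bear on Lcn2 and Anxa1, had 4 of 9 tested, none called and a median of 1.14. For S100a8, S100a9 and Csf3r the groups did not overlap, as for 14.1% of all genes (treated higher). The differences of S100a8, S100a9 and Csf3r were 1.51, 1.35 and 0.92, with adjusted p of 0.100, 0.0946 and 0.0765 by limma. Under spike-in scaling Csf3r and S100a9 passed, with adjusted p of 0.0290 and 0.0440 by limma, and with normexp background Csf3r was at 0.34. The summed log2 level was 0.48, 0.98 and 0.84 in treated animals 1, 2 and 3, against -0.70, -1.03 and 0.24 in control animals 1, 2 and 3, and Cxcr2, Elane, Mmp8 and Ngp were not well above background. For Lcn2, the lowest animal was treated animal 2, which had the highest summed neutrophil level. That Lcn2 level was close to the lowest called well above background. Of the treated animals, Csf3r was lowest in animal 2, at -4.34 against -4.03 in animal 1 and -3.79 in animal 3. A link between Lcn2 and the neutrophil genes was not tested.

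The markers of fibroblasts and mesangium (8 of 10 tested), endothelium (9 of 10), macrophages (10 of 11), lymphocytes (9 of 10) and podocytes and parietal epithelium (8 of 8) had no called gene, and 3 of the 9 lymphocyte genes were kept only through the treated arrays. They bear on Vim, Vcam1, Cd44 and Spp1. Their median differences were -0.03, -0.02, -0.03, 0.01 and -0.16 in that order, beside -0.03 over all genes. For fibroblasts and mesangium, endothelium, macrophages and lymphocytes, the 2 genes of smallest p in each list had differences of -0.35 (Col1a1) and -0.31 (Dcn), -0.18 (Eng) and -0.14 (Kdr), -0.66 (Itgam) and -0.77 (Mrc1), and 0.30 (Cd3d) and -0.16 (Cd4). Eng, Kdr and Cd4 turned positive under spike-in scaling. Itgam passed with normexp background (adjusted p = 0.0363 by limma), and under spike-in scaling Cd3d (0.0353) and the podocyte gene Synpo (0.0294) did. Under that scaling 1280 of 12130 genes passed with a higher treated mean. The 7 defining proximal tubule markers had 1 gene lower, beside 1.33% of all genes. It was Aqp1, which is also among the mature tubule genes.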

How the data were processed

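Total RNA of renal cortex was labelled with Cy3 and hybridised to 1-colour arrays, 1 per rat, in 2 groups of 3. The deposited intensity of a spot is, per the file headers, a background-subtracted and detrended value from Agilent Feature Extraction 10.7.1.1 (the submitters' processing notes give 10.7), on a design tied to build rn4. The deposited value table holds, as a linear ratio, the signal over that array's 75th percentile, which was found by setting the 2 against each other (ratio 0.998). Its column medians were 0.110, 0.108 and 0.108 in treated animals and 0.105, 0.104 and 0.109 in control animals, it is not centred by gene, and the labels do not describe the step. Precision is limited by the number of arrays.

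Signals were taken as log2 minus each array's 75th percentile over non-control probes. Outlier spots (1 to 3 per array) were left out, and no spot was saturated. Accessions were named through a RefSeq table (GRCr8, 28206 of 61537 probes), and no coordinates of probes are given because rn4 and GRCr8 differ. A probe was kept if all 3 arrays of either group called it well above background, and the kept probe with the highest mean stood for its gene. The 12130 genes and, separately, 40988 probes were compared with limma 3.58.1 (R 4.3.3; prior degrees of freedom 1.77) at an adjusted p of 0.05. The fit was tested on simulated data. Alternatives were normexp background with offset 50 (on median spot signals, since the scanner files used here hold no mean), quantile and median scaling, other filters, the deposited table, a replicate block, an intensity trend, the mean of probes, each array left out and, chosen after seeing the data, spike-in scaling. A slide or scan block could not be fitted.

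The members and lists were chosen with earlier results of these data known. The genes named are the members, from each list up to 4 called genes or else the 2 with the smallest p, and the 2 genes nearest to each member in pattern; Slc7a13, Scnn1b, Hsd11b2, Timp2, S100a8, Krt13, Krt5, Upk3a and Upk1a were named after their values were seen, as were those in the other observations. For podocytes and parietal epithelium, 1 gene that the rule names is not reported here.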

Additional observations from a re-analysis of the deposited data

How the results depend on the processing

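Of the 144 marker values from 9 markers under 16 alternatives, 138 kept their direction and their side of the threshold, 3 came to pass it and 3 turned in sign. No marker passed in the gene-level fit, but 1 did with normexp background (Anxa1, adjusted p = 0.0413 by limma), with probes well above background on all 6 arrays (Krt7, 0.0499) and with an intensity trend (Krt7, 0.0298). Spp1 had an unadjusted p under 0.05 in all 16, with a difference of 0.59 to 0.88 and an adjusted p of 0.0510 to 0.234. In the probe-level fit 1 marker passed, against 0 without a filter, 2 under the stricter filter and 2 with the trend and 0 in each of the 6 fits that left out 1 array. Over all genes, 531 were called (370 higher, 161 lower), against 945 with normexp (449 higher, 496 lower), 44 without a filter (37 higher, 7 lower), 836 with the trend (441 higher, 395 lower), 292 with the mean of probes (229 higher, 63 lower) and 1314 under spike-in scaling (1280 higher, 34 lower), where the median of all genes was 0.15, against -0.03. Leaving out 1 array gave 0 to 54 called genes, with 2437 to 2647 at an unadjusted p under 0.05: 46 without treated animal 1, 54 without control animal 2 and 0 without each of the other 4. The cause of these differences was not tested.

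With the replicate number as a block, limma called 0 genes and 0 markers, with 2547 genes at an unadjusted p under 0.05, and 0 markers in the probe-level fit. Deviations of same-numbered animals correlated at -0.12, -0.11 and 0.09, and those of differently numbered animals at -0.09 to 0.21. No closer likeness of same-numbered animals was seen. With 3 animals a group these values cannot settle whether the numbers pair the animals. The signs that turned were those of Lcn2 without treated animal 2 (0.053, with values down to -1.62 when another array was left out) and, under spike-in scaling, Vim (0.0501), Vcam1 (0.0262), Eng (0.00368), Kdr (0.0390) and Cd4 (0.0203). The spike-in scaling rests on 1 spike, whose treated minus control difference was -0.18. A slide or scan block was not run, because each slide and scan held 1 group. Havcr1 was close to the lowest measurable signal on control arrays, which limits how low its control level could be read. Lcn2 was close to that lowest signal in treated animal 2.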

Other observations

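Areg, a growth factor ligand of the EGF receptor made by injured tubule, was singled out after its values were seen. Its level was -0.49, -1.94 and -2.22 in treated animals 1, 2 and 3, against -4.19, -2.58 and -4.13 in control animals 1, 2 and 3, on the log2 scale relative to each array's 75th percentile. All 3 treated animals were above all 3 controls, as for 14.1% of all genes tested. The Areg mean was 4.25-fold higher, and the adjusted p was 0.118 by limma. Gdf15, a stress-induced secreted factor, was at -0.20, 0.58 and -0.01 in treated animals 1, 2 and 3, against -0.54, -0.61 and -0.45 in control animals 1, 2 and 3, with an adjusted p of 0.127. Treated animal 2, highest for Havcr1 and Clu, was also the highest for Gdf15.

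Of the 4 liver-type plasma protein genes among the other injury markers, 2 stood apart in 1 control, and these too were singled out after their values were seen. Alb, the albumin gene, was at -0.58, -1.11 and -0.03 in treated animals 1, 2 and 3, against -1.05, -1.49 and 3.89 in control animals 1, 2 and 3. Fgg, the fibrinogen gamma chain gene, was at -4.14, -4.83 and -4.84 in treated animals 1, 2 and 3, against -6.07, -5.40 and -0.91 in control animals 1, 2 and 3. Control animal 3 was above every other animal for both, and Fgg was well above background on only 2 control arrays, so that its -6.07 in control animal 1, under the lowest level called well above background there (-5.59), is no measured level. Fga, the alpha chain gene, did not stand apart, at 0.89, 0.99 and 0.55 in treated animals 1, 2 and 3, against 0.84, 0.51 and 0.81 in control animals 1, 2 and 3. Fgb, the beta chain gene, was at -0.30, 0.15 and -0.63 in treated animals 1, 2 and 3, against 0.49, -0.72 and 1.21 in control animals 1, 2 and 3.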
